A study of Homo sapiens with 12 samples.

Results

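The RUNX and SOX genes examined here were RUNX1, RUNX2, RUNX3 and their shared partner CBFB, together with SOX2, SOX4, SOX5, SOX6, SOX9 and SOX11. They were chosen by symbol, with the symbols mapped from the gene identifiers of the deposited count table, and make up 10 of its 58721 genes. Of the 10, 9 passed the filter on low counts that left 21013 genes to test. SOX9, the exception, had 0 counts in all 12 libraries. When c-Jun and c-Fos were induced, RUNX1 and RUNX2 rose in both cell lines, SOX4 rose by a smaller amount in both, and SOX2 and SOX6 fell in both. RUNX3 fell in EW8, SOX11 fell in TC71 and SOX5 rose in EW8, while for CBFB no change was detected in either line with all 12 libraries. For SOX11 and SOX5 the difference between the responses of the lines did not pass. For RUNX3 that difference passed narrowly and was lost in 17 of 19 alternative fits. The SOX5 rise was lost in 3 of 20 such fits.

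RUNX proteins are transcription factors that bind DNA through a runt domain and do so with much higher affinity as heterodimers with the non-DNA-binding subunit CBFB. RUNX1 is required for the emergence of blood stem cells from hemogenic endothelium, RUNX2 for bone formation, and RUNX3 acts in T cells, sensory neurons and epithelium. SOX proteins bind DNA through a high-mobility-group domain, usually together with a partner factor, and are grouped by its sequence. SOX2 keeps stem cells and neural progenitors undifferentiated, SOX4 and SOX11 act in differentiating neurons and mesenchyme, and SOX9 with SOX5 and SOX6 drives cartilage formation. AP-1 is a dimer of JUN and FOS family proteins that binds short palindromic sites and is known to act next to RUNX proteins on bone and blood genes.

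EW8 and TC71 are human Ewing sarcoma cell lines, the tumor in which the fusion protein EWS-FLI1 is the usual driver. Every library came from cells that carry the lentiviral Tet-On transgenes for c-Jun and c-Fos, in which a TRE3G promoter is switched on by the Tet3G activator, itself expressed from the EF1 alpha promoter. Per the labels, the cells were exposed for 72 h either to vehicle (DMSO, labelled WT) or to doxycycline at 2000 ng/ml (labelled AP1_overexpression), which gave 4 groups of 3 libraries. Nothing in the labels says whether the replicates were separate cultures, so the p-values measure the spread between these libraries, which may be technical. Libraries of doxycycline-treated cells without the transgenes were not analysed here, so doxycycline itself and the transgenes cannot be told apart.

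Totals ran from 42860665 to 60853649 counts per library. JUN and FOS, the induced genes, rose in both lines, with log2 fold changes of 4.46 and 4.87 in EW8 and 5.19 and 7.08 in TC71, with no split of transgene from endogenous reads. All 12 Ewing sarcoma markers on the list used here were detected above the floor of 6 counts, which is 3 read pairs, in every group. TC71 vehicle replicate 1 stood apart from the other libraries of its group. Its chi-square per gene against them, a measure of replicate disagreement relative to counting noise, was 59.4 and 62.0, compared with 5.32 to 10.6 for all other replicate pairs. Where a test of the 10 genes passed with this library and not without it, or the reverse, both values are given.

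Levels are given as CPM, counts relative to the library's total with that total scaled by edgeR's TMM method, and as TPM, which also divides by the exon length of the gene and is used only to compare genes with each other. By TPM, SOX2 was the highest of the 10 genes in both EW8 groups, at 294 with vehicle and 195 with doxycycline. CBFB was next, at 61.7 and 63.7 TPM. In TC71 the highest was CBFB, at 187 and 179 TPM, followed by SOX2 at 81.4 and 65.9 TPM. RUNX3 came after these in all 4 groups, between 41.0 and 65.8 TPM. SOX4, SOX6 and SOX11 lay between 6.71 and 29.5 TPM in every group. SOX5 and RUNX1 had group means of at most 2.72 TPM, and RUNX2 went from 0.675 TPM in EW8 vehicle to 10.5 TPM in TC71 doxycycline, where it was above SOX11. The exon length of RUNX1, 15574 bases over all its transcripts, lowers its TPM relative to a gene with few transcripts.

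**Figure D1:**
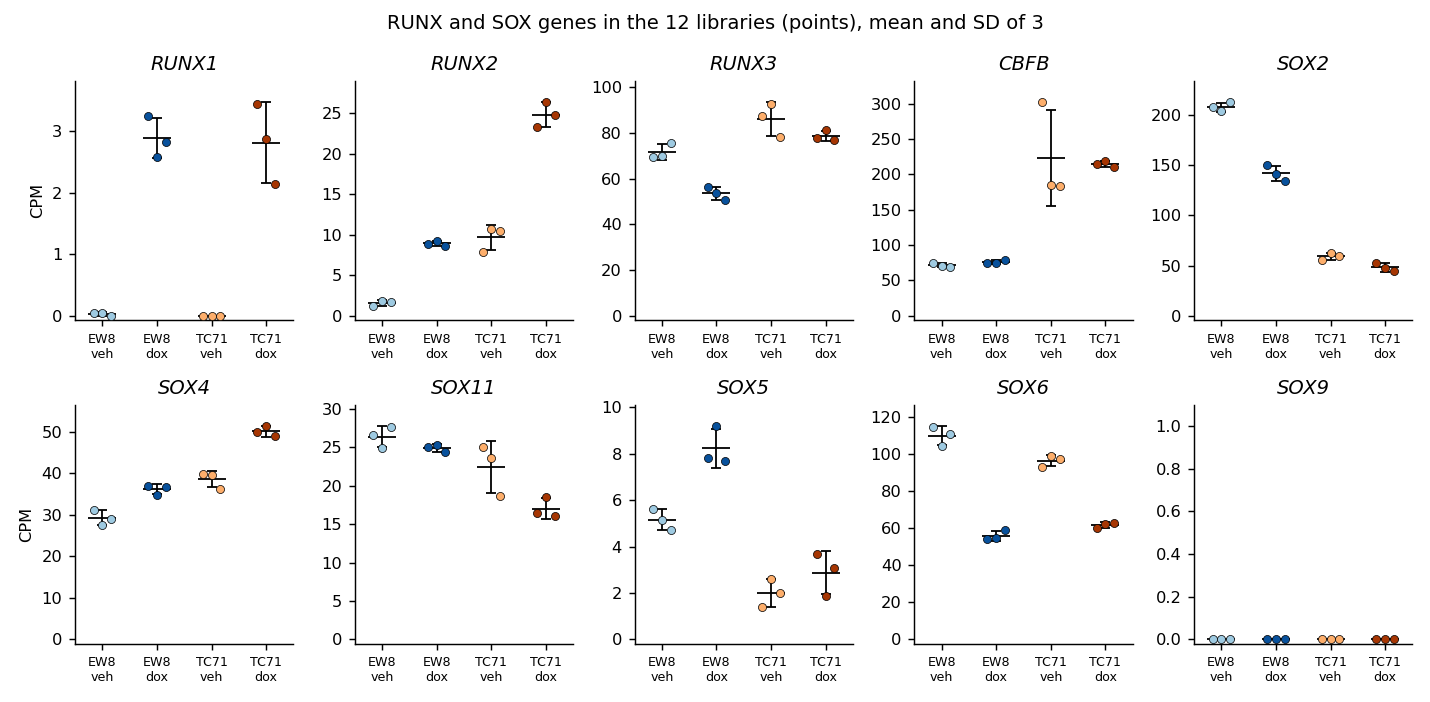
CPM of the 10 genes on linear axes that differ between panels. Each point is 1 of 12 libraries, with the mean (horizontal line) and SD (bar) of the 3 libraries of a group; veh is vehicle and dox is doxycycline. RUNX1 is at or near 0 in all 6 vehicle libraries and between 2.14 and 3.44 CPM in all 6 doxycycline libraries, and 1 TC71 vehicle library of CBFB lies far above the other 2.

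A gene was termed called when its adjusted p was under 0.05 and its log2 fold change lay beyond 1 or -1. By this rule 2 of the 9 tested genes (RUNX1 and RUNX2) were called higher in EW8, where 11.4% of all tested genes were. In TC71 the same 2 were called higher, where 12.3% of all tested genes were. None was called lower in EW8 or in TC71, against 3.38% and 3.67% of all tested genes. By edgeR's quasi-likelihood test at an adjusted p under 0.05 with no fold limit, EW8 had 4 genes higher and 3 lower, where 21.9% and 22.0% of all tested genes were. TC71 had 3 higher and 3 lower, against 25.1% and 20.4%. With so few genes these shares describe the list only.

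**Figure D2:**
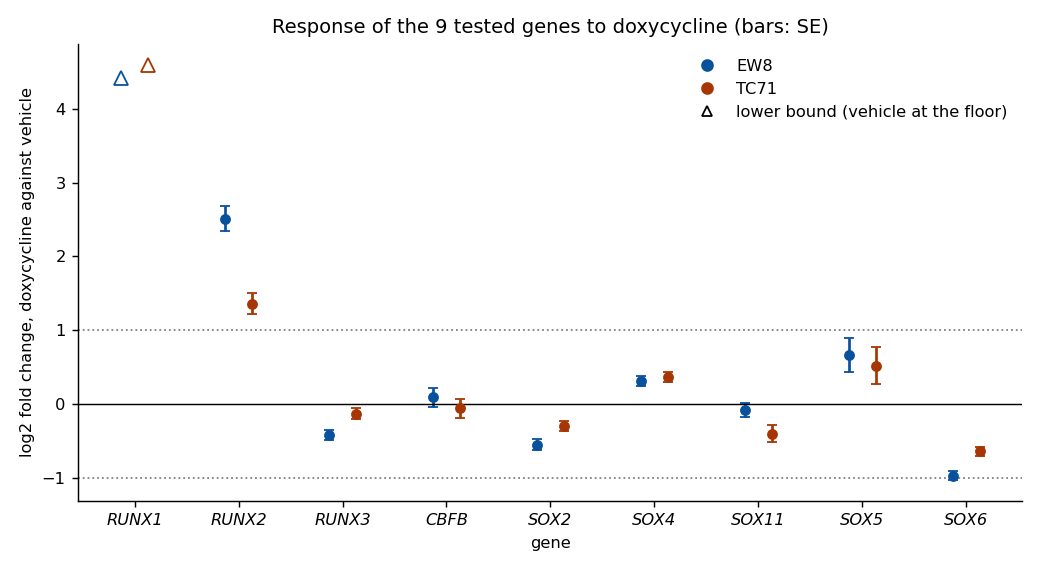
Log2 fold change with doxycycline in EW8 (blue) and TC71 (brown) for the 9 tested genes, with SE bars; dotted lines mark the fold limit at 1 and -1. RUNX2 lies above the limit in both lines, SOX6 lies just inside it in EW8, and open triangles give the lower bounds for RUNX1, whose vehicle libraries were at the floor.

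Promoter sequences were taken from the RefSeq promoter table (build GRCh38.p14), which holds windows of 300 bases, 250 before and 50 after each start site, for 7 of the 10 genes. CBFB, SOX9 and SOX11 had no entry. Windows were searched on both strands for the AP-1 site TGANTCA, the related CRE-like site TGACGTCA, the RUNX site TGTGGT, the SOX site AACAAT and the paired GGAA motif GGAAGGAA. The AP-1 and CRE-like sites are their own reverse complements, and no match in these windows overlapped another. Of all 35116 promoter windows in the table, 7.71% held an AP-1 site, 1.85% a CRE-like site, 13.1% a RUNX site, 10.1% a SOX site and 3.67% the paired GGAA motif.

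Stretches before a RefSeq start site of each of the 3 RUNX genes, outside every exon listed for them in the count table, are shown because RUNX1, RUNX2 and RUNX3 differed in what they did with doxycycline, and 27 bases of SOX6 because that gene fell in both lines and held the other AP-1 match. Capitals mark matches to the AP-1 site and, on the opposite strand, to the RUNX site.
RUNX1 chr21:34888700-34888949, minus strand: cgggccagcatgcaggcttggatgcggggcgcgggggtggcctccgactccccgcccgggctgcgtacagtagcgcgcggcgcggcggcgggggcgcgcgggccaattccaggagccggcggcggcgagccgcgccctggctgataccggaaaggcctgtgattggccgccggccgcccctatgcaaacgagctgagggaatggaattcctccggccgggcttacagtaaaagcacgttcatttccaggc
RUNX2 chr6:45328080-45328156, plus strand: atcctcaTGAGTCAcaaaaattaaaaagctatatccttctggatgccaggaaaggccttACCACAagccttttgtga
RUNX3 chr1:24965122-24965260, minus strand: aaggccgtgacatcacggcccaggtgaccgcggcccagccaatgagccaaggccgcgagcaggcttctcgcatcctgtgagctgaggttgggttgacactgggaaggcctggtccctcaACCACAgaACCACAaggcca
SOX6 chr11:16738568-16738594, minus strand: tgtagttttcTGATTCAttgcatactg
The RUNX2 window has an AP-1 match that begins 243 bases before the RefSeq start site, and 4 RUNX matches in all, which begin 191 and 87 bases before and 16 and 24 bases after it. The second RUNX2 window, at chr6:45422025-45422324, held none of the 5 motifs. The RUNX3 window farthest upstream has 2 RUNX matches and the other RUNX3 window none of the motifs. The only RUNX1 window in the table lies inside the span that the count table gives the gene, at an internal start site far downstream of its 5′ end, and other RUNX1 start sites were not searched. It held none of the motifs, and nor did those of SOX2 and SOX4. The AP-1 match of SOX6 begins 107 bases before the first of its 5 start sites and lies in an exon of SOX6 in the count table. Of the other SOX6 windows, numbers 2 and 4 held 1 SOX match each and number 3 held 1 RUNX match. Number 5 held 2 RUNX matches, 2 SOX matches and 1 paired GGAA match, the only GGAA match in the windows of these genes. SOX5 had 1 SOX match. These matches are letters in a window, and no binding was measured.

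RUNX1 (chromosome 21, 34787801 to 36004667, minus strand, hg38 as in the count table) encodes the RUNX protein best known from blood stem cells and leukemia. With vehicle it had 2, 2 and 0 counts in the EW8 libraries and 0 in all 3 TC71 libraries, which puts both groups at the floor. With doxycycline it had 181, 131 and 124 counts in EW8, or 3.24, 2.59 and 2.83 CPM. The 3 TC71 doxycycline libraries held 142, 120 and 94 counts, or 3.44, 2.87 and 2.14 CPM. All 6 doxycycline libraries therefore lay above all 6 vehicle libraries, and the levels reached in the lines overlapped. Against the floor, the rise of RUNX1 in EW8 was at least 21.3-fold (edgeR adjusted p 3.77e-08). For TC71 the bound was at least 24.2-fold (adjusted p 8.59e-09). Doxycycline levels of the lines did not differ detectably, with a log2 difference of -0.04 (SE 0.33, adjusted p 0.931). RUNX1 passed the test for lower levels in TC71 vehicle than in EW8 vehicle (adjusted p 0.0412), but both groups were at the floor, no fold is given, and 11 of 18 alternatives lost the call, among them the fit without TC71 vehicle replicate 1 (adjusted p 0.0806). Even when induced, RUNX1 was the second lowest of the genes, at 0.641 ± 0.0732 TPM in EW8 and 0.622 ± 0.136 TPM in TC71 (SD, n = 3). In bulk RNA, a low level in all cells and a high level in few cells cannot be told apart, and neither can fewer cells of a type and less RNA per cell.

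Sums of marker genes of other cell types differed between the treatments as well, and rested on some of the genes only. PECAM1, VWF, CDH5 and KDR, of endothelium, summed to between 7.54 and 8.72 CPM in EW8 vehicle libraries and between 37.4 and 44.3 CPM with doxycycline. In TC71 vehicle 3 of these 4 were at the floor and the sum was at most 0.382 CPM, compared with 3.85 to 5.14 CPM with doxycycline. In both lines PECAM1 and VWF rose, and PECAM1 alone was at 7.07 and 37.5 CPM in EW8. CDH5 was at 0.873 and 0.601 CPM in EW8 (adjusted p 0.579). In TC71 CDH5 was called higher, from the floor to 0.173 CPM, at least 1.48-fold (adjusted p 0.0348). KDR passed in neither line (adjusted p 0.0856 and 0.328). Epithelial markers summed to 9.56 to 10.2 and 50.7 to 54.8 CPM in the EW8 groups, with KRT5 at the floor. In the TC71 groups the sums were 176 to 215 and 227 to 241 CPM, with KRT5 and CDH1 at the floor. KRT8 and KRT18 rose in EW8 (log2 fold changes 2.67 and 2.15), and neither passed in TC71. KRT18 made up most of the TC71 sums, at 194 and 218 CPM. EPCAM rose from 0.707 to 11.9 CPM in TC71 and did not pass in EW8. Fibroblast markers ran from 120 to 132 and from 108 to 111 CPM in EW8 and from 96.8 to 150 and from 153 to 164 CPM in TC71. Within them PDGFRB (-1.08 and -1.42), LUM (-2.36 and -1.66) and DCN (-0.93 and -1.73) fell in both lines. PDGFRA rose from 0.837 to 2.48 CPM in EW8 and did not pass in TC71. COL1A1 rose from 26.1 to 92.8 CPM in TC71 and did not pass in EW8, and THY1 passed in neither line. Of the blood markers in EW8, 3 of 5 were above the floor, with sums of 64.9 to 73.1 CPM with vehicle and 75.1 to 80.2 CPM with doxycycline, mostly PTPRC, at 65.9 and 74.9 CPM, while in TC71 PTPRC, CD3E and HBB were at the floor with either treatment. The part of these markers in the RUNX1 counts, or in those of the other genes, was not tested.

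RUNX2 (chromosome 6, 45328157 to 45664349, plus strand) encodes the master factor of osteoblasts. EW8 vehicle libraries were at 1.15, 1.87 and 1.65 CPM and EW8 doxycycline libraries at 8.88, 9.29 and 8.61 CPM. In TC71 the values were 7.87, 10.7 and 10.4 CPM with vehicle and 23.3, 26.3 and 24.8 CPM with doxycycline. Each doxycycline group lay entirely above its vehicle group, and the TC71 vehicle libraries overlapped with the EW8 doxycycline libraries. The log2 fold change was 2.51 (SE 0.17, adjusted p 7.57e-10) in EW8, a 5.70-fold increase. It was 1.36 (SE 0.14, adjusted p 3.34e-07) in TC71, a 2.56-fold increase. The TC71 response of RUNX2 minus that of EW8 was -1.15 on the log2 scale (SE 0.22, adjusted p 0.000987). Of the 9 tested genes it was the 1 called in this comparison, against 2.87% of all tested genes called lower and 4.18% called higher. By adjusted p alone RUNX2 was lower, and RUNX3 and SOX6 were higher, where 7.07% and 12.2% of all tested genes were. Without TC71 vehicle replicate 1, the lowest library of its group for RUNX2, the TC71 change was 1.15 and the difference -1.41 (adjusted p 4.32e-06).

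RUNX2 also differed between the lines under the same treatment. TC71 vehicle cells were above EW8 vehicle cells by 2.63 (SE 0.17, adjusted p 1.67e-10) on the log2 scale, or 6.18-fold, and TC71 doxycycline cells were above EW8 doxycycline cells by 1.48 (SE 0.15, adjusted p 6.48e-08). RUNX2 lies within a region that also holds SUPT3H, ENSG00000271857 and the antisense gene RUNX2-AS1 on the other strand. No exon base of RUNX2 is shared with another gene in the table.

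RUNX3 (chromosome 1, 24899511 to 24965121, minus strand), a factor of T cells and sensory neurons, was the most abundant of the 3 RUNX genes in all 12 libraries. It was at 69.3, 70.1 and 75.7 CPM in EW8 vehicle and at 56.4, 53.9 and 50.5 CPM in EW8 doxycycline. In TC71 it was at 87.4, 92.7 and 78.1 CPM with vehicle and at 78.0, 81.4 and 77.2 CPM with doxycycline. The EW8 groups did not overlap and the TC71 groups did. RUNX3 fell by 0.42 on the log2 scale (SE 0.07, adjusted p 8.41e-05) in EW8, and its log2 fold change of -0.13 in TC71 did not pass (SE 0.07, adjusted p 0.155). That TC71 value passed under 8 of 20 alternatives, for example without TC71 vehicle replicate 1 (-0.20, adjusted p 0.0272) and with library size alone (-0.22). The difference of the responses was 0.29 (SE 0.10, adjusted p 0.0467). This was just under the threshold, and 17 of 19 alternatives put it above, among them DESeq2 and the fit without TC71 vehicle replicate 1 (0.18, adjusted p 0.216).

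CBFB (chromosome 16, 67029116 to 67101058, plus strand) encodes the subunit shared by the 3 RUNX proteins. EW8 libraries were at 75.1, 70.5 and 69.6 CPM with vehicle and at 74.3, 74.9 and 79.1 CPM with doxycycline. In TC71 vehicle the values were 302, 185 and 183 CPM, with replicate 1 far above the others, and in TC71 doxycycline they were 215, 219 and 211 CPM. With all 12 libraries no change was detected in either line (log2 fold changes 0.09 and -0.06, SE 0.13 each, adjusted p 0.645 and 0.769). Without TC71 vehicle replicate 1, CBFB passed the test as higher by 0.13 in EW8 (adjusted p 0.0357) and by 0.14 in TC71 (adjusted p 0.0368), both far under the fold limit. The TC71 change thereby turned from lower to higher. Between the lines the gap was larger. CBFB was higher in TC71 than in EW8 by 1.64 (SE 0.13, adjusted p 3.72e-09) with vehicle and by 1.5 (SE 0.13, adjusted p 1.23e-08) with doxycycline, and the vehicle value was 1.47 without replicate 1.

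The make-up of the RUNX family was then compared per exon length. The summed TPM of RUNX1, RUNX2 and RUNX3 was 57.0 ± 3.37 in EW8 vehicle and 45.4 ± 2.15 in EW8 doxycycline, and 69.9 ± 6.31 and 71.2 ± 2.14 in the TC71 groups (SD, n = 3). RUNX3 supplied 98.8% of it in EW8 vehicle and 90.3% with doxycycline, and 94.1% and 84.4% in TC71. The share of RUNX2 was 1.18% and 8.30% in the EW8 groups and 5.87% and 14.7% in the TC71 groups, with no overlap between the treatments of a line. RUNX1 never exceeded 1.51% of the sum. RUNX3 was thus the main RUNX transcript in every library. Per library the ratio of CBFB to the summed RUNX genes in TPM was between 0.994 and 1.54 in EW8 and between 2.06 and 3.60 in TC71, with the top value in TC71 vehicle replicate 1.

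**Figure D3:**
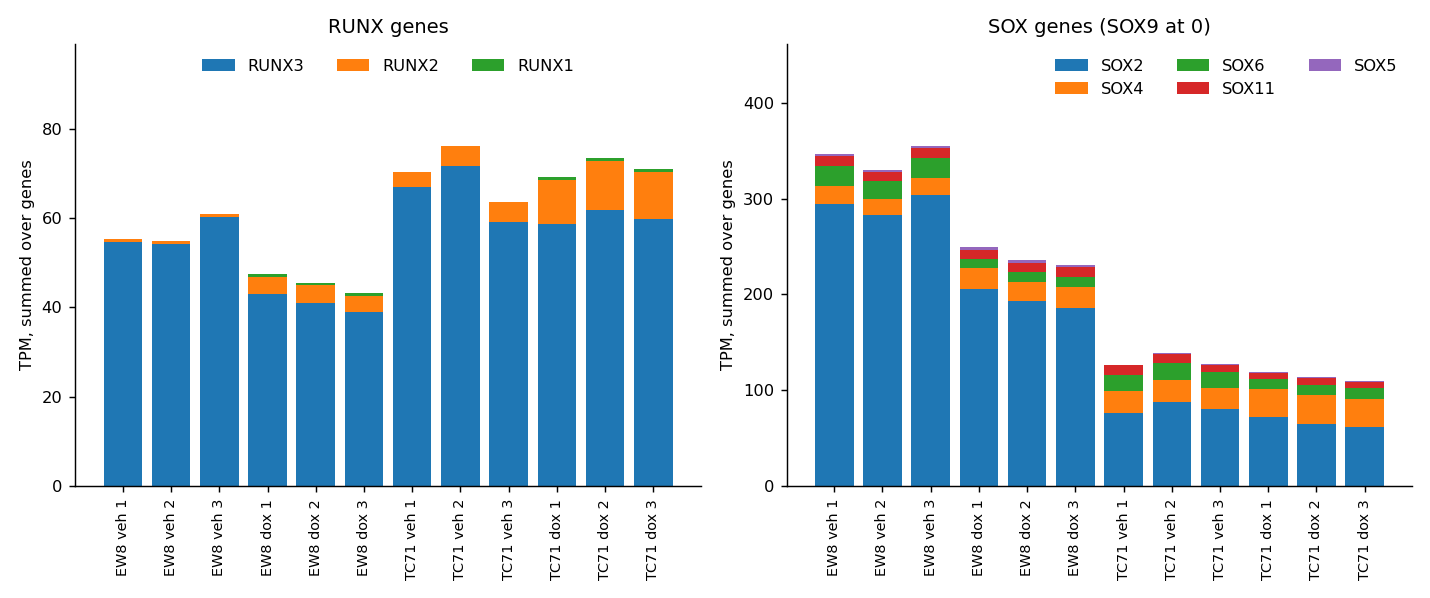
Summed TPM of the RUNX genes (left) and of the SOX genes (right) in the 12 libraries, stacked by gene. RUNX3 fills at least 84.1% of every RUNX bar, and SOX2 fills from 80.7% to 85.8% of the EW8 SOX bars and from 56.2% to 63.6% of those of TC71.

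SOX2 (chromosome 3, 181711924 to 181714436, plus strand) is the stem cell and neural progenitor factor of the group and lies inside the long non-coding gene SOX2-OT, with which it shares no exon base in the table. It was at 207, 204 and 212 CPM in EW8 vehicle and at 150, 141 and 134 CPM in EW8 doxycycline. In TC71 the libraries were at 55.3, 62.8 and 59.3 CPM with vehicle and at 52.9, 47.2 and 44.1 CPM with doxycycline. The groups of each line did not overlap, although only narrowly so in TC71. SOX2 fell by 0.55 (SE 0.07, adjusted p 2.83e-06) in EW8 and by 0.30 (SE 0.07, adjusted p 0.00181) in TC71 on the log2 scale. The difference of these responses was 0.25 and did not pass (SE 0.10, adjusted p 0.0849). Levels differed more between the lines than between treatments. SOX2 in TC71 was lower by a log2 difference of -1.81 (SE 0.07, adjusted p 1.77e-13) with vehicle, or 3.51-fold, and of -1.56 (SE 0.07, adjusted p 1.48e-12) with doxycycline.

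SOX4 (chromosome 6, 21592768 to 21598619, plus strand) and SOX11 (chromosome 2, 5692667 to 5701385, plus strand) are close relatives that act in neuronal and mesenchymal differentiation. SOX4 was at 31.2, 27.6 and 28.99 CPM in EW8 vehicle and at 36.9, 34.9 and 36.7 CPM in EW8 doxycycline. TC71 libraries were at 39.9, 39.6 and 36.3 CPM with vehicle and at 49.9, 51.3 and 48.9 CPM with doxycycline. SOX4 rose in both lines without overlap of the groups, in EW8 by 0.31 (SE 0.07, adjusted p 0.00214) and in TC71 by 0.37 (SE 0.07, adjusted p 0.000311). No difference of the responses was detected (0.07, SE 0.10, adjusted p 0.736), and its sign turned in 8 of 19 alternatives. Of the exon bases of SOX4, 2.87% are shared with ENSG00000283480 on the other strand, and by the counter's default a read there is given to neither gene.

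SOX11 did not rise in either line. Its EW8 libraries were at 26.5, 24.9 and 27.6 CPM with vehicle and at 25.0, 25.3 and 24.3 CPM with doxycycline, which overlapped. TC71 libraries were at 25.1, 23.6 and 18.7 CPM with vehicle and at 16.4, 18.5 and 15.99 CPM with doxycycline, where the highest doxycycline library was just below the lowest vehicle library. The log2 fold change was -0.08 (SE 0.10, adjusted p 0.579) in EW8, and SOX11 fell by 0.40 (SE 0.11, adjusted p 0.00439) in TC71. Although 1 line passed and the other did not, the difference of -0.32 did not pass (SE 0.15, adjusted p 0.155). It passed under 3 of 19 alternatives, among them the fit without TC71 vehicle replicate 3 (-0.52). With doxycycline, the TC71 minus EW8 log2 difference of SOX11 was -0.55 (SE 0.11, adjusted p 0.000186), while with vehicle the difference of -0.23 did not pass (adjusted p 0.0641).

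SOX5 (chromosome 12, 23529500 to 24562544, minus strand) and SOX6 (chromosome 11, 15966449 to 16739591, minus strand) are paralogs that help SOX9 to switch on cartilage genes, and in EW8 they moved in opposite directions. SOX6 was at 115, 104 and 111 CPM in EW8 vehicle and at 54.0, 54.9 and 59.0 CPM in EW8 doxycycline. In TC71 it was at 93.0, 99.0 and 97.4 CPM with vehicle and at 60.1, 62.2 and 62.9 CPM with doxycycline. All 6 doxycycline libraries were below all 6 vehicle libraries. SOX6 fell by 0.97 (SE 0.06, adjusted p 2.13e-10) in EW8, just inside the fold limit of 1, and by 0.64 (SE 0.06, adjusted p 5.62e-08) in TC71. The drop passed the fold limit in EW8 under 2 of 20 alternatives. The difference of the responses was 0.33 (SE 0.08, adjusted p 0.00941), and without TC71 vehicle replicate 1 it was 0.18 and did not pass (adjusted p 0.144), as under 7 other alternatives of 19. SOX6 shares 1.57% of its exon bases with MIR6073 and C11orf58.

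SOX5 was at 5.62, 5.14 and 4.72 CPM in EW8 vehicle and at 7.80, 9.19 and 7.70 CPM in EW8 doxycycline. TC71 libraries were at 1.41, 2.59 and 1.98 CPM with vehicle and at 3.69, 1.86 and 3.09 CPM with doxycycline, which overlapped. In EW8 SOX5 rose by 0.67 (SE 0.23, adjusted p 0.0218), and its log2 fold change of 0.52 in TC71 did not pass (SE 0.25, adjusted p 0.0942). The EW8 result no longer passed when EW8 vehicle replicate 2, EW8 vehicle replicate 3 or EW8 doxycycline replicate 2 was left out, with log2 fold changes of 0.63 to 0.67 and adjusted p of up to 0.077. No difference between the responses was detected (-0.15, SE 0.33, adjusted p 0.834). SOX5 was lower in TC71 by a log2 difference of -1.36 (SE 0.24, adjusted p 7.27e-05) with vehicle and of -1.51 (SE 0.24, adjusted p 1.95e-05) with doxycycline. SOX6 was above SOX5 in TPM in all 12 libraries.

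SOX9 (chromosome 17, 72121020 to 72126420, plus strand), the factor required for cartilage and also known from neural crest and gut stem cells, had 0 counts in each of the 12 libraries. A count of 0 still allows up to 6 counts, or between 0.0966 and 0.145 CPM depending on the library. SOX9-AS1 lies on the other strand and overlaps the span of SOX9, with no exon base shared. SOX5 and SOX6 were thus detected in both lines without detectable SOX9.

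Between the lines with vehicle, 2 of the 9 tested genes were called higher in TC71 (RUNX2 and CBFB), where 11.6% of all tested genes were, and 3 lower (RUNX1, SOX2 and SOX5), where 18.9% were. RUNX1 was at the floor in both vehicle groups, and its call was lost in 11 of 18 alternatives. With doxycycline the same 2 were called higher, where 12.6% of all tested genes were, and SOX2 and SOX5 lower, where 18.4% were. By adjusted p alone, TC71 vehicle was higher for 4 and lower for 4, RUNX1 among the latter, where 28.2% and 33.5% of all tested genes were. TC71 doxycycline was higher for 5 and lower for 3, where 30.2% and 32.3% were. RUNX3, SOX4 and SOX6 differed between the lines by at most 0.56 on the log2 scale. SOX2 kept the order EW8 vehicle, EW8 doxycycline, TC71 vehicle, TC71 doxycycline with no overlap between neighbours, and for SOX6 the order was EW8 vehicle, TC71 vehicle, TC71 doxycycline, EW8 doxycycline. The difference of SOX6 between the vehicle groups was -0.19 (adjusted p 0.0101), and without TC71 vehicle replicate 1 it was -0.05 and did not pass (adjusted p 0.495). That between the doxycycline groups was 0.14 (adjusted p 0.0492) and did not pass in 18 of 20 alternatives, among them the fit without that library (0.13, adjusted p 0.0608).

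**Figure D4:**
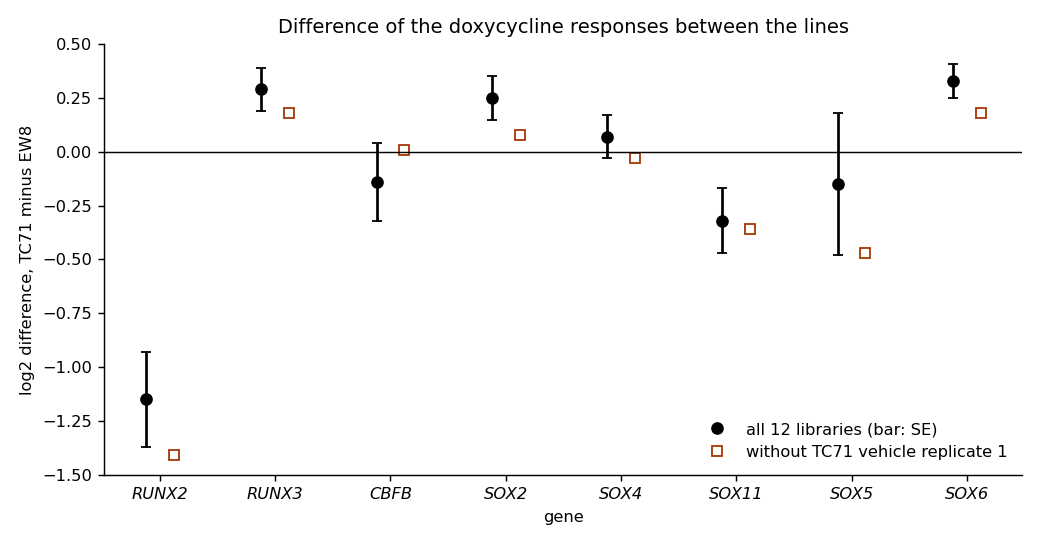
Log2 difference of the doxycycline responses, TC71 minus EW8, for the 8 genes whose groups were all above the floor. Black points with SE bars use all 12 libraries and open squares leave out TC71 vehicle replicate 1; RUNX2 keeps its negative value (-1.15 and -1.41), while the squares of RUNX3 (0.18) and SOX6 (0.18) lie nearer to 0 than the points (0.29 and 0.33).

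Genes whose pattern over the 12 libraries most resembled that of RUNX1 and RUNX2, the 2 called genes, were found by the Pearson correlation of log2 CPM. The search covered 14986 genes with a mean of at least 1 CPM, and the coefficient ignores both the level of a gene and the size of its change. The libraries share their lines and treatments, so the coefficients describe a common pattern of 4 groups and carry no test. Closest to RUNX1 were ITGA6, an integrin that binds laminin (r 0.9967), SLC6A17, a neurotransmitter transporter (r 0.996), and MGLL, a lipase that breaks down monoglycerides (r 0.9959). ITGA6 was at 3.10 and 54.9 CPM in the EW8 groups and at 2.26 and 50.4 CPM in the TC71 groups. SLC6A17 was at 0.0446 and 18.3 CPM in EW8 and at 0.0127 and 21.1 CPM in TC71. Closest to RUNX2 were TMBIM1 (r 0.9946), GPAT4, an enzyme of glycerolipid synthesis (r 0.9917), and KHNYN (r 0.9894). TMBIM1 was at 15.6, 64.0, 61.8 and 148 CPM in the order EW8 vehicle, EW8 doxycycline, TC71 vehicle and TC71 doxycycline. In the same order GPAT4 was at 56.0, 75.2, 74.5 and 91.7 CPM and KHNYN at 38.6, 57.9, 59.1 and 70.8 CPM. GPAT4 and KHNYN thus changed less than RUNX2. These genes were picked for their likeness to RUNX2, so an order of the groups like that of RUNX2 follows from the choice.

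The rest of the SOX family and 6 lists of partners and downstream genes came next. Each list's counts called higher and lower stand beside 11.4% and 3.38% of all tested genes in EW8 and 12.3% and 3.67% in TC71, and with lists this short they describe the genes only. Of 13 other SOX genes, 7 passed the filter, and the highest count of SOX1, SOX3, SOX10, SOX14, SOX17 and SOX30 in any library was 20. In EW8, 1 was called higher and 1 lower, and in TC71 2 higher and 1 lower. The counts lower moved under 5 of 22 alternatives in EW8, between 0 and 3, and under 12 in TC71, to 2. The median log2 fold changes were -0.68 (-0.02 when a bound replaces the fitted value at the floor) and -0.12, beside -0.03 and 0.00 for all tested genes. SOX7, an endothelial and endoderm factor of the same subgroup as SOX17 and SOX18, in EW8 rose from 1.73 ± 0.389 to 5.41 ± 0.844 CPM (SD, n = 3, as for all values of this kind), a log2 change of 1.64 (SE 0.19, adjusted p 8.23e-07). In TC71 SOX7 rose from 2.21 ± 0.515 to 48.0 ± 3.42 CPM (4.43, SE 0.18, adjusted p 4.09e-13). SOX18, its relative from blood and lymph vessels, fell in both lines, by 1.09 (SE 0.15, adjusted p 8.59e-06) and by 1.38 (SE 0.15, adjusted p 5.45e-07), from 12.3 ± 1.68 and 10.5 ± 0.654 CPM. SOX7 and SOX18 thus went opposite ways, and the sums of endothelial markers given above are higher with doxycycline in both lines.

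SOX13, of the subgroup of SOX5 and SOX6, rose in TC71 from 1.99 ± 0.512 to 9.29 ± 0.606 CPM (2.22, SE 0.18, adjusted p 1.15e-08). In EW8 it was at 8.22 ± 0.898 and 8.08 ± 1.03 CPM, a log2 fold change of -0.02 (adjusted p 0.935). SOX12, which belongs with SOX4 and SOX11 and was the most abundant of the 13, fell by 0.68 (SE 0.08, adjusted p 8.17e-07) from 62.7 ± 5.27 CPM in EW8 and by 0.39 (SE 0.07, adjusted p 0.000266) from 121 ± 8.42 CPM in TC71. SOX8, a relative of SOX9 and SOX10, fell by 0.96 (SE 0.29, adjusted p 0.0112) from 17.03 ± 0.811 CPM in EW8, and was below 1 CPM in all TC71 libraries. SOX15 rose in TC71 (0.92, SE 0.31, adjusted p 0.0209) and did not pass in EW8 (0.38, adjusted p 0.324). SOX21, at most 0.854 CPM in any library, passed in neither line (fitted values -1.11 and -1.33). Its EW8 doxycycline libraries were at the floor. The responses differed between the lines for SOX7 by 2.79 (SE 0.25, adjusted p 2.94e-07) and for SOX13 by 2.24 (SE 0.25, adjusted p 3e-06), and the test did not pass for the other 5. Without TC71 vehicle replicate 1 it did for SOX8, with a difference of 1.80 (adjusted p 0.0132), at under 1 CPM in TC71.

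**Figure D5:**
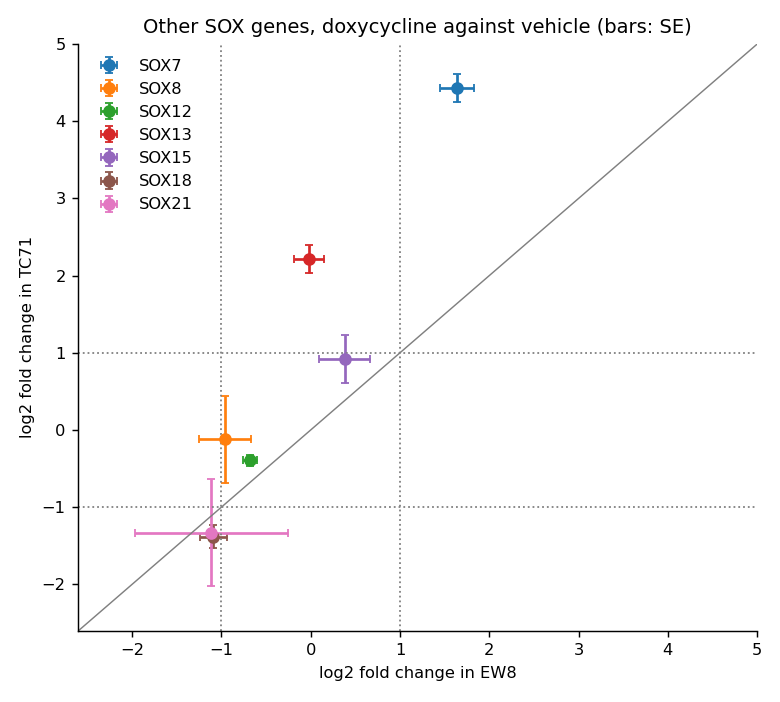
Log2 fold change with doxycycline in EW8 (horizontal axis) and TC71 (vertical axis) for the 7 other SOX genes that passed the filter, with SE bars in both directions; dotted lines mark the fold limit and the diagonal marks equal change. SOX7 and SOX13 lie far above the diagonal, and SOX18 and SOX21 are beyond the limit in the lower left.

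RUNX cofactors, the corepressors and coactivators that RUNX proteins recruit, were examined as a list of 22 genes, all of them tested. In EW8, 1 was called higher and 1 lower, and in TC71 2 higher and 1 lower, with median log2 fold changes of -0.28 and -0.20 beside -0.03 and 0.00 for all tested genes. The count lower in EW8 moved under 14 of 22 alternatives, between 0 and 11, and that higher in TC71 under 7, to 1. HIPK2, a kinase that phosphorylates RUNX1 and its coactivators, rose from 61.9 ± 3.80 to 266 ± 14.3 CPM in EW8 (2.10, SE 0.13, adjusted p 3.34e-10). In TC71 HIPK2 rose from 28.4 ± 8.69 to 374 ± 16.2 CPM (3.71, SE 0.14, adjusted p 2.09e-13). RUNX1T1, a corepressor known from its fusion to RUNX1 in leukemia, was at 0.279 and 0.281 CPM with vehicle and at the floor with doxycycline in both lines. It was at least 2.04-fold lower in EW8 (adjusted p 0.0441), a call lost in 11 of 18 alternatives, and in TC71 it did not pass (adjusted p 0.0617). WWTR1, which encodes the coactivator TAZ, rose in TC71 (1.05, SE 0.07, adjusted p 6.87e-10) and fell in EW8 (-0.28, SE 0.07, adjusted p 0.00409). TLE2, a Groucho corepressor, fell by 0.63 (adjusted p 4.17e-05) in EW8 and by 1.04 (adjusted p 1.78e-07) in TC71. TLE5, a short relative of the Groucho corepressors, did not pass in either line (-0.01 and 0.22, adjusted p 0.922 and 0.0563).

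Bone genes downstream of RUNX2 formed a list of 19, of which 11 were tested. In EW8 1 was called higher and 1 lower, and in TC71 4 higher and 2 lower, with median log2 fold changes of -0.20 and 0.72 (0.23 when bounds replace the fitted values at the floor), beside -0.03 and 0.00 for all tested genes. The count higher in TC71 was 2 with only the 2 groups compared and with halved counts. SPP1, which encodes the bone matrix protein osteopontin, was the 1 called higher in both, from the floor to 2.44 ± 0.919 CPM in EW8 and to 0.22 ± 0.0264 CPM in TC71, with bounds of at least 18-fold and at least 1.89-fold (adjusted p 2.36e-06 and 0.00198). COL1A1, the main collagen of bone, rose in TC71 from 26.1 ± 5.31 to 92.8 ± 4.74 CPM (1.83, SE 0.11, adjusted p 1.88e-10) and did not pass in EW8 (0.17, adjusted p 0.244, or 0.22 with adjusted p 0.0147 without TC71 vehicle replicate 1). MMP13, a collagenase of growing bone, and COL1A2 were called higher in TC71, at least 5.19-fold and at least 2.15-fold, but at under 1 CPM. ALPL, the alkaline phosphatase of mineralising cells, fell in TC71 from 43.7 ± 2.33 to 14.6 ± 0.861 CPM (-1.58, SE 0.15, adjusted p 5.64e-08). DLX3 fell in EW8 (-1.44, adjusted p 0.000731) and in TC71 (-0.92, adjusted p 0.0149). The TC71 value of DLX3 did not pass without TC71 vehicle replicate 1 (-0.69, adjusted p 0.0521) or TC71 doxycycline replicate 3 (-0.77, adjusted p 0.0687). SPARC, a collagen-binding matrix protein and the most abundant of the list, fell in EW8 (-0.20, adjusted p 0.018) and rose in TC71 (0.72, adjusted p 4.81e-08). PHOSPHO1, a phosphatase of mineralisation, fell by 0.39 and by 0.54 (adjusted p 1.85e-05 and 3.75e-07). SP7, BGLAP and IBSP, markers of mature osteoblasts, had at most 14 counts in any library and were not tested.

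Cartilage genes downstream of SOX9, SOX5 and SOX6 formed a list of 18, with 15 tested. Called higher and lower were 3 and 3 in EW8 and 3 and 5 in TC71, with median log2 fold changes of -0.60 and -0.02. The count higher in TC71 was 1 with only the 2 groups compared. PTCH1, the hedgehog receptor, fell in both lines, from 26.1 ± 2.18 to 9.66 ± 1.39 CPM in EW8 (-1.43, SE 0.11, adjusted p 4.2e-09) and from 50.6 ± 3.39 to 18.2 ± 1.21 CPM in TC71 (-1.47, SE 0.11, adjusted p 1.52e-09). COL2A1, the main collagen of cartilage, fell in TC71 from 7.88 ± 2.29 to 2.05 ± 0.471 CPM (-1.94, SE 0.33, adjusted p 7.99e-05) and was below 1 CPM in EW8. MATN3, a cartilage matrix protein, rose in TC71 from 2.36 ± 0.952 to 9.84 ± 1.54 CPM (2.06, SE 0.28, adjusted p 7.96e-06). ACAN, the cartilage proteoglycan, went from 0 counts to 0.497 ± 0.128 CPM in EW8, at least 3.67-fold higher, and stayed at the floor in TC71. COL11A1 was called higher in both lines and reached 1.13 ± 0.183 CPM in EW8. In TC71 COL11A1 went from the floor to 0.167 ± 0.136 CPM, at least 1.43-fold higher. That TC71 call was lost without TC71 doxycycline replicate 1 (2.70, adjusted p 0.0798). CYTL1 was called higher in EW8 and COMP in TC71, both at under 1 CPM, and the COMP libraries of the groups overlapped. The COMP call was lost without TC71 doxycycline replicate 3 (1.51, adjusted p 0.273). In TC71 CYTL1 was at 10.1 and 7.42 CPM and did not pass (-0.44, adjusted p 0.179), but passed as lower under 2 of 19 alternatives. WWP2, the most abundant of the list, differed by at most 0.05.

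Blood genes downstream of RUNX1 and RUNX3 formed a list of 22, with 12 tested. Called higher and lower were 2 and 0 in EW8 and 3 and 2 in TC71, with medians of -0.16 and 0.07. The count of 0 lower in EW8 became 1 or 2 under 13 of 22 alternatives, among them DESeq2 and the replicate block. ITGAX, an integrin of myeloid and dendritic cells, went from the floor to 61.9 ± 3.97 CPM in EW8 and to 31.8 ± 4.98 CPM in TC71, with bounds of at least 457-fold and at least 273-fold (adjusted p 6.22e-15 and 1.59e-14). CSF1R, the macrophage growth factor receptor, rose from 0.602 ± 0.217 to 2.11 ± 0.507 CPM in EW8 (1.80, SE 0.36, adjusted p 0.000518) and from 0.317 ± 0.075 to 1.302 ± 0.252 CPM in TC71 (2.04, SE 0.39, adjusted p 0.000252). TAL1 was called higher in TC71 at under 1 CPM. In EW8 TAL1 was at 1.38 ± 0.498 and 0.529 ± 0.415 CPM (-1.36, adjusted p 0.0559), which passed as lower under 11 of 19 alternatives. MYB, a factor of blood progenitors, fell in TC71 from 14 ± 0.623 to 4.196 ± 0.429 CPM (-1.74, SE 0.15, adjusted p 1.73e-08) and in EW8 from 4.16 ± 0.361 to 2.09 ± 0.244 CPM (-0.99, SE 0.16, adjusted p 4.65e-05). CEBPA, a myeloid factor, fell in both, by 0.52 (adjusted p 0.0132) and 1.24 (adjusted p 1.52e-05). ZBTB7B, which directs T cells to the CD4 fate, rose by 0.28 and 0.72 (adjusted p 0.00622 and 2.74e-07). GATA2, a factor of blood progenitors, did not pass (-0.19 and 0.12, adjusted p 0.483 and 0.655), but in TC71 GATA2 was 0.45 and passed without TC71 vehicle replicate 1 (adjusted p 0.000656). SPI1, the myeloid factor PU.1, had at most 16 counts in any library.

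Neural progenitor partners and targets of SOX2 formed a list of 19, with 15 tested. Called higher and lower were 2 and 3 in EW8 and 2 and 0 in TC71, with medians of -0.21 and -0.38. The count of 0 lower in TC71 moved under 11 of 22 alternatives, to between 1 and 6. POU3F2, a partner that binds DNA next to SOX2, fell from 198 ± 11.6 to 89.2 ± 0.316 CPM in EW8 (-1.15, SE 0.07, adjusted p 8.69e-11) and from 41.5 ± 2.87 to 31.4 ± 2.06 CPM in TC71 (-0.40, SE 0.07, adjusted p 9.61e-05). FABP7, a lipid carrier of radial glia, fell in EW8 from 118 ± 3.35 to 45.5 ± 2.40 CPM (-1.38, SE 0.09, adjusted p 5.21e-10) and was at most 0.194 CPM in TC71. LIN28B, which blocks let-7 maturation, fell by 1.05 and 0.87 (adjusted p 4.69e-09 and 3.03e-08). NES, the intermediate filament of neural progenitors, rose in both, from 0.371 ± 0.182 to 0.873 ± 0.141 CPM in EW8 (1.26, SE 0.30, adjusted p 0.00186) and from 2.57 ± 0.178 to 16.8 ± 1.64 CPM in TC71 (2.70, SE 0.21, adjusted p 4.89e-09). NANOG went from 0 counts to 0.716 ± 0.148 CPM in EW8, at least 5.29-fold higher, and PROM1 was called higher in TC71 at under 1 CPM. MSI2, an RNA-binding protein of progenitors, fell in EW8 (-0.51, SE 0.07, adjusted p 4.85e-06) and did not pass in TC71 (0.02, adjusted p 0.841).

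Neuronal genes downstream of SOX4 and SOX11 formed a list of 14, all tested. Called higher and lower were 3 and 1 in EW8 and 3 and 0 in TC71, with medians of -0.06 and -0.52 (-0.12 and -0.36 when bounds replace the fitted values at the floor). The count of 0 lower in TC71 moved under 17 of 22 alternatives, to between 1 and 5, and was 1 with DESeq2. TUBB3, the neuronal tubulin, rose from 0.541 ± 0.342 to 2.77 ± 0.235 CPM in EW8 (2.33, SE 0.40, adjusted p 0.000119) and from 0.212 ± 0.136 to 2.80 ± 0.311 CPM in TC71 (3.71, SE 0.45, adjusted p 1.68e-06). MAP2, a microtubule protein of dendrites, rose in TC71 from 3.19 ± 0.83 to 44.9 ± 1.53 CPM (3.81, SE 0.16, adjusted p 7.25e-13) and in EW8 from 1.48 ± 0.132 to 2.34 ± 0.278 CPM (0.65, SE 0.18, adjusted p 0.00786). STMN2 went from 0 counts to 0.625 ± 0.351 and 0.427 ± 0.0929 CPM, with bounds of at least 4.62-fold and at least 3.66-fold (adjusted p 0.000142 and 0.000229). GAP43, a growth cone protein, rose in EW8 (1.51, SE 0.16, adjusted p 5.21e-07). In TC71 GAP43 was at 32.7 and 26.6 CPM (-0.30, adjusted p 0.0703), which passed as lower under 12 of 20 alternatives, with -0.48 without TC71 vehicle replicate 1. DCX, a marker of migrating neurons, fell in EW8 from 10.3 ± 0.214 to 3.83 ± 1.26 CPM (-1.44, SE 0.37, adjusted p 0.00355). With DESeq2 the drop of DCX did not pass (-1.42, adjusted p 0.301), and the list's count lower in EW8 was 0. STMN1 and TEAD2, the 2 most abundant, fell in both lines, STMN1 by 0.56 and 0.73 (adjusted p 3.4e-08 and 6.59e-10) and TEAD2 by 0.29 and 0.62 (adjusted p 0.00114 and 2.33e-07).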

How the data were processed

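The data were deposited as whole-number counts per gene for 12 RNA-seq libraries. Per the labels and the file headers, the authors aligned reads with STAR to hg38 and counted them with featureCounts 2.0.1 on the exons of GENCODE 29 genes. The counter was run without options for read pairs, strand or multi-mapped reads. Each mate was therefore counted on its own (67.3% to 69.8% of counts from 20 to 199 were even), strand was not used, and reads on shared exon bases were dropped. Exon lengths, which the authors' counter also deposited (other values, in bases), were used for TPM. Gene symbols were found for 58252 identifiers (99.2%).

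Groups came from the sample labels. Counts were tested with edgeR 4.0.16 (R 4.3.3): filterByExpr left 21013 genes, TMM scaling was applied, and a single quasi-likelihood model of the 4 groups was fitted to all 12 libraries. The Benjamini-Hochberg adjustment covered every tested gene. The authors used DESeq2, which (version 1.42.0) served as 1 of the alternatives, beside other scaling, filters, fold limits, halved counts, a replicate block and leaving out each library. Log2 fold changes have SE from the test statistic. A group at or under 6 counts in every library was at the floor, and a bound divides the mean CPM of the other group by the highest CPM that 6 counts give there. Floors cover counting error only, since PCR copies are not independent. The fit was tested on simulated data.

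The RUNX and SOX genes, the 7 gene lists and the marker lists were chosen with earlier results of these data known, and no list was tested as a set. Named genes were the 10 genes, the other SOX genes tested, and from each list up to 6 genes called in at least 1 line, by the larger absolute log2 fold change, plus the 2 with the highest mean CPM. For each of the 10 called in a line, the 3 most similar genes were added. Some genes that this rule names are not reported here. Promoters came from the RefSeq table named with them.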

Additional observations from a re-analysis of the deposited data

Results flagged for a closer look

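Of the RUNX and SOX genes, 3 responded to doxycycline differently in the lines by the interaction test of edgeR at an adjusted p under 0.05, 2 of them with a higher and 1 with a lower value in TC71, where 12.2% and 7.07% of all tested genes were. The response of RUNX2 was smaller in TC71 than in EW8 by -1.15 on the log2 scale (adjusted p 0.000987), with changes of 1.36 and 2.51, higher in 3 of 3 doxycycline libraries of each line. For RUNX3 the difference was 0.29 (adjusted p 0.0467), with a drop of -0.42 in EW8 and a change of -0.13 in TC71. For SOX6 it was 0.33 (adjusted p 0.00941), with drops of -0.97 in EW8 and -0.64 in TC71. The RUNX3 difference did not pass under 17 and that of SOX6 under 8 of 19 alternatives, each among them without TC71 vehicle replicate 1, where both were 0.18. Among the other SOX genes, the response in TC71 exceeded that in EW8 by 2.79 for SOX7 (adjusted p 2.94e-07) and by 2.24 for SOX13 (adjusted p 3e-06), and these kept their side of the threshold under all 19 alternatives.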

How the results depend on the processing

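In both lines RUNX1 and RUNX2 kept their higher calls wherever they were tested, but requiring 10 or more counts per library removed RUNX1 and left 1 gene called higher in each line. Without the fold limit the counts higher and lower were 4 and 3 in EW8 and 3 and 3 in TC71, 2 were higher for the difference of the responses, and 4 with vehicle and 5 with doxycycline were higher in TC71 than in EW8. A log2 limit of 0.58 gave 1 lower in each line, and library size alone 1 lower in EW8. Leaving out 1 library each, the count lower in EW8 ran from 0 to 1 (1 without EW8 vehicle replicate 2) and that of genes with a smaller response in TC71 from 0 to 1 (0 without EW8 vehicle replicate 1, where RUNX2 was at -0.98).

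Over all 7 lists, the main fit called 13 genes higher and 10 lower in EW8 and 19 higher and 11 lower in TC71. At least 10 counts in every library gave 5 higher and 5 lower in EW8 and 9 higher in TC71. Of all 14647 genes tested with that filter, 1255, 345 and 1362 were. No fold limit gave 20 higher and 35 lower in EW8 and 32 lower in TC71. By that rule 21.9%, 22.0% and 20.4% of all tested genes were. A limit of 0.58 gave 22 lower in EW8 and 20 lower in TC71, and all tested genes were not counted at it. These counts describe the lists only. With the filter of at least 10 counts, signs turned for the SOX4 difference (-0.04), MSI2 in TC71 (-0.02) and in EW8 for SOX13 (0.04), TLE5 (0.05) and WWP2 (0.02). With halved counts these were -0.03 for SOX4, -0.03 for MSI2, 0.03 for SOX13 and 0.03 for TLE5. MSI2 was also -0.01 with median-ratio factors, -0.01 with DESeq2 and -0.07 with library size alone, where WWP2 in TC71 was -0.04. With only the 2 groups compared, SOX13 was 0.02 and TLE5 0.03.

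Leaving out 1 library each gave -0.21 to 0.13 for RUNX1 between the doxycycline groups, -0.22 to 0.14 for CBFB in TC71 and -0.35 to 0.01 for its difference, -0.06 to 0.11 for the SOX4 difference and -0.47 to 0.09 for that of SOX5. In EW8 the ranges were -0.35 to 0.08 for ALPL, -0.70 to 0.05 for COL1A2, -0.41 to 0.04 for MATN3, -0.78 to 0.32 for MMP13, -0.09 to 0.12 for SOX13, -0.05 to 0.05 for TLE5 and -0.09 to 0.02 for WWP2. In TC71 they were -0.58 to 0.65 for FABP7, -0.11 to 0.45 for GATA2, -0.10 to 0.05 for MSI2, -0.72 to 0.89 for SOX8 and -0.07 to 0.09 for WWP2.

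Same-numbered libraries had correlated deviations of only -0.072 to 0.072, beside -0.097 to 0.08 for libraries of different numbers. No common deviation was thus seen, but whether same-numbered libraries were prepared together cannot be told from it. With the replicate block, RUNX2 rose by 2.53 in EW8 and by 1.37 in TC71, and no call of the RUNX and SOX genes changed. A fit of only the 2 groups compared was not run for the difference of the responses. The cause of these shifts was not tested, and genes under 1 CPM rest on few read pairs.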
